A study of Mus musculus with 12 samples.

Results

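The interferon-stimulated genes described here are a list of 50 genes taken by symbol, of which 49 were among the 31054 features counted. Mx2, a dynamin-like antiviral GTPase, was not among the features and has no value. The genes were read in sorted brain cells of 4 C57BL/6J mice that had been conditioned with busulfan and dosed with Lin- bone marrow progenitors (HSPCs) carrying a lentiviral vector for GFP, either intravenously (i.v., 1 female and 1 male) or intracerebroventricularly (i.c.v., 1 female and 1 male). All 4 animals also received unmodified total bone marrow i.v. some days later, and the labels give their age as 22 to 28 weeks, which differs from the interval after transplantation in the study's methods. From each brain, cells carrying CD45, CD11b and Cx3cr1 on their surface were sorted into a GFP+ library, which holds the progeny of the transduced cells (microglia-like cells, MLCs), and a GFP- library, which holds the endogenous microglia and can also hold progeny of unmodified marrow. The donors of the HSPCs were male. One library each of neurons, astrocytes, microglia and peripheral blood white cells (PBMC) came from a treatment-naive C57BL/6J source, which the labels give as 8 to 12 weeks old and the study describes as a single animal. That makes 8 libraries from treated mice and 4 reference libraries with no replicate.

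Interferons are secreted when a cell senses foreign or misplaced nucleic acid. Type I interferons bind the Ifnar1 and Ifnar2 receptor, whose kinases activate transcription factors, Stat2 among them, that join Irf9 to form a complex binding a DNA element called the interferon-stimulated response element (ISRE). The genes switched on in this way encode proteins that bind viral RNA, block entry or budding, degrade nucleic acids or raise further interferon, and in the brain microglia and macrophages are among the cells known to express them. Many of them are also expressed at some level in resting myeloid cells.

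The ISRE is shown first because it is the sequence through which the list is known to be switched on. In promoters of RefSeq on GRCm38.p6, from 250 bases before to 50 after the gene's start, 40 of the 50 genes had an entry. The ISRE letters, GAAA and, after any 2 bases, GAAA again, were searched on both strands with overlaps allowed and were found in the promoter of 25 of the 40 genes (62.5%), and of 3.99% of all 27025 genes of the table. The letters TTCNNNGAA, of the gamma-activated sequence (GAS), were found in 22.5% of the 40 genes and in 9.55% of all genes. A match is a description of letters and not of binding. The stretches below are the 200 bases before the start, 5′ to 3′ on the gene's strand, with the ISRE letters in capitals on whichever strand they lie. They cover Isg15 and Ifit1, which define the responding cells used further on, Rsad2 and Bst2 and Ifi203, which stood higher in GFP+ cells, and Ifitm2, which differed by route.
Isg15: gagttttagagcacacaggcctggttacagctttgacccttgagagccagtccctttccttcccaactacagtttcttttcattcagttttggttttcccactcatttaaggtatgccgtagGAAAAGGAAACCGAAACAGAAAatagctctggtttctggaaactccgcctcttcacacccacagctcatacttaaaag
Ifit1: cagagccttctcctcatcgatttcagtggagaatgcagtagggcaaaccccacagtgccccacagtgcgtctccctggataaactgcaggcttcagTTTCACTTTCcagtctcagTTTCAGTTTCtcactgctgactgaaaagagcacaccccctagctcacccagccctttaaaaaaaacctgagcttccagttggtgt
Rsad2: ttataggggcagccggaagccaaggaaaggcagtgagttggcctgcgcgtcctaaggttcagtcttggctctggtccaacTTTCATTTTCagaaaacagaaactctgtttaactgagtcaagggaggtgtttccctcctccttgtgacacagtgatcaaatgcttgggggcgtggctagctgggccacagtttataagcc
Bst2: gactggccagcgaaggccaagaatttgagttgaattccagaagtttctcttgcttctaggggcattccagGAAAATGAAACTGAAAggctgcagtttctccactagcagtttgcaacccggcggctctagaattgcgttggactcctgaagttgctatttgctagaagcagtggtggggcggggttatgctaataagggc
Ifi203: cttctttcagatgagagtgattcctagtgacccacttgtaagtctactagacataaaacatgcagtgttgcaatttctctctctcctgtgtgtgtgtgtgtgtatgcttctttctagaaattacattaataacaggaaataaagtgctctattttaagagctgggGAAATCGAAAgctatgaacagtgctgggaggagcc
Ifitm2: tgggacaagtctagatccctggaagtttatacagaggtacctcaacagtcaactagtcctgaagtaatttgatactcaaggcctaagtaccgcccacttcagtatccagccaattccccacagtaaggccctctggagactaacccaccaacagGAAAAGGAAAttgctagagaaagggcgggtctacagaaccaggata
They lie at chr4:156200819-156201018 (minus strand), chr19:34640689-34640888 (plus), chr12:26456453-26456652 (minus), chr8:71537473-71537672 (minus), chr1:173942493-173942692 (minus, the second of 2 listed starts, the other having no match) and chr7:140955962-140956161 (minus). In Isg15 3 matches overlapped into 1 run beginning 78 bases before the start. Ifit1 had 2 matches on the opposite strand and Bst2 2 overlapping ones. Rsad2 had 1 on the opposite strand, and Ifi203 and Ifitm2 had 1 each, in Ifi203 only 35 bases before the start. Ifitm3 had 2 matches just after its start, outside the window printed for the others.

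The 8 treated libraries kept 27439 barcodes after filters on detected genes and mitochondrial UMIs, 2266 to 4555 and 4970758 to 16514669 UMIs per library. Median UMIs per cell were 3499 in the i.v. female's GFP+ library, 1058 to 1307.5 in the other GFP+ libraries and 842 to 1034 in the GFP- libraries. Levels are UMIs of a gene per 1000000 UMIs of the library (CPM), and EGFP stood at 16.8 to 33.3 CPM in GFP+ libraries and at 0 to 0.153 CPM in GFP- libraries. Summed microglia markers were at 5057 to 9203 CPM in GFP+ and 10436 to 14926 CPM in GFP- libraries, and all 8 markers were present in each. Summed markers of CNS-associated macrophages were at 2021 to 2669 and 881 to 1591 CPM. The part of these shifts in the results below was not tested. No pair of libraries shared more than 8 barcodes. The library sorted as neurons held oligodendrocyte markers at 52653 CPM against 104 CPM of neuronal ones, so it is called the neuron sort here, and the naive microglia library held neutrophil markers at 9237 CPM.

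Levels are given for the GFP+ libraries of the i.v. female, i.v. male, i.c.v. female and i.c.v. male, in that order, and then for the GFP- libraries of the same 4 mice. Fold changes are log2 values of GFP+ over GFP- from edgeR's quasi-likelihood test on UMIs summed per library, with Benjamini-Hochberg adjusted p over all genes tested. GFP+ cells stood higher than GFP- cells for a large part of the list. Of the 49 genes tested, 27 rose in GFP+ cells and 0 fell, while 16.6% of all 11756 genes tested rose and 15.9% fell. The median log2 fold change was 1.10 over the 49 genes and 0.01 over all genes. The fitted log2 fold change was above 0 for all 49 genes, down to 0.02 for Igtp, but only for 40 of them without the TMM factors by which the fit scales libraries. Without these factors the median over all genes moved to -0.27 and 19 of the 49 genes rose and 0 fell, beside 770 genes of all that rose and 3803 that fell. Summed UMIs cannot tell apart more cells with a transcript and more transcript per cell.

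**Figure D1:**
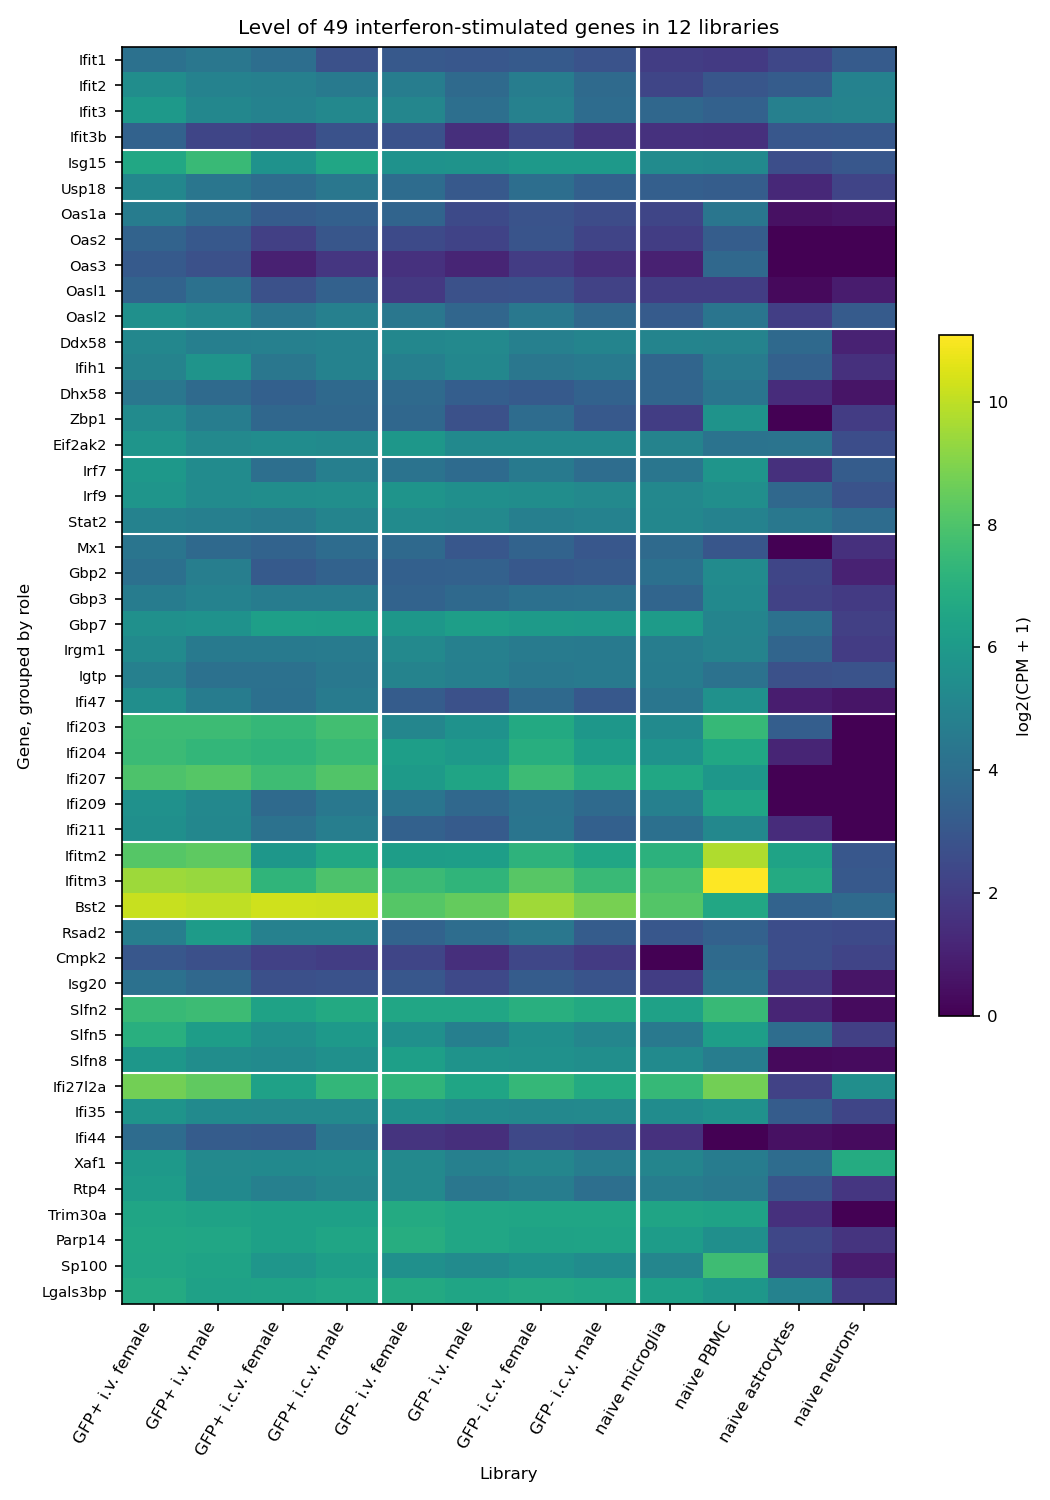
Level of 49 interferon-stimulated genes (rows, grouped by role, white lines between groups) in the 12 libraries (columns), as log2(CPM + 1). Bst2 and the PYHIN genes Ifi203, Ifi204 and Ifi207 were brighter in the 4 GFP+ columns than in the GFP- columns, and Ifitm2, Ifitm3 and Ifi27l2a were brightest in the 2 GFP+ i.v. columns and in blood.

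Ifit1, Ifit2 and Ifit3 encode proteins that bind foreign RNA and block its translation, and Isg15 encodes a small ubiquitin-like modifier. Ifit1 stood at 16.5, 20.2, 14.9 and 5.69 CPM in GFP+ and 7.64, 7.05, 7.77 and 6.04 CPM in GFP- libraries. The i.c.v. male's GFP+ library lay below all GFP- libraries, so the groups overlapped, and the log2 fold change was 1.30 (SE 0.35, adjusted p = 0.0206). Ifit2 stood at 42.9, 29.5, 27.2 and 21.9 CPM against 24.7, 13.2, 24.7 and 13.2 CPM, with a log2 fold change of 0.97 (SE 0.30, adjusted p = 0.0329). It was higher in GFP+ cells of each mouse, but the groups overlapped. Ifit3 stood at 61.1, 33.7, 29.4 and 35.2 CPM against 33.0, 15.5, 28.5 and 14.1 CPM, with a log2 fold change of 1.11 (SE 0.34, adjusted p = 0.0329). In plain CPM the i.v. female's GFP- library was above the i.c.v. female's GFP+ library, whereas on the TMM scale the sorts did not overlap. Isg15 stood at 99.0, 180.0, 49.1 and 92.8 CPM against 49.9, 50.1, 61.9 and 63.8 CPM, with a log2 fold change of 1.20 (SE 0.36, adjusted p = 0.0307). The i.c.v. female's GFP+ library was below all GFP- libraries, and with the mouse as a block the adjusted p of edgeR's test was 0.0910. Of the 50-base windows in the last 500 bases of Ifit3, 14.9% also occur in Ifit3b, so reads of Ifit3 are uncertain to that extent. Ifit3b did not pass the test at a log2 fold change of 1.07. Usp18, the protease that removes Isg15 from proteins and dampens the receptor, rose by 1.21 on the log2 scale.

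The PYHIN genes, which encode cytosolic and nuclear DNA-binding proteins and lie side by side on chromosome 1, all passed the test (5 of 5). Ifi203 (chr1:173920407-173942672) stood at 195, 191, 166 and 214 CPM in GFP+ libraries and 33.2, 49.5, 105 and 57.0 CPM in GFP- libraries. The means were 192 ± 19.8 and 61.3 ± 31.1 (SD, n = 4 each), no library overlapped, and the log2 fold change was 1.90 (SE 0.33, adjusted p = 0.00411). Ifi207 (chr1:173723427-173741747) stood at 250.3, 286, 196 and 269.9 CPM against 64.0, 86.7, 192 and 123 CPM, with a log2 fold change of 1.37 (SE 0.34, adjusted p = 0.0146). The sorts did not overlap, though the i.c.v. female's GFP- library came within 5 CPM of its GFP+ partner. Ifi204 (chr1:173747293-173766943) stood at 189, 163, 147 and 176 CPM against 73.0, 63.6, 122 and 72.5 CPM, again with no overlap, and its log2 fold change was 1.30 (SE 0.23, adjusted p = 0.00443). Ifi211 and Ifi209 rose by 1.67 and 1.21 (log2), but in the i.c.v. female both were lower in GFP+ cells, and Ifi209 had an adjusted p of 0.0815 with the mouse as a block. Of the last 500 bases of their transcripts, where reads of this kit start, Ifi211 shares 77.4% of 50-base windows with other genes and Ifi209 47.8%, so that counts within this family are uncertain. For Ifi203 the share was 9.10%.

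Bst2 (tetherin, chr8:71534255-71537456), which holds budding virus at the cell surface, had the most UMIs of the list in each of the 8 treated libraries. It stood at 1140.1, 1041, 1239.7 and 1228 CPM in GFP+ libraries and 282, 350.2, 719 and 446 CPM in GFP- libraries. The lowest GFP+ library stood above the highest GFP- library, and the log2 fold change was 1.63 (SE 0.29, adjusted p = 0.00434). When each cell was thinned to 500 UMIs, 25.0% to 32.1% of GFP+ cells and 7.51% to 19.6% of GFP- cells held a Bst2 UMI. Among the cells that reach 500 UMIs, 7.05% of naive microglia and 0.207% of the neuron sort did. Ifitm2 and Ifitm3, which make membranes resistant to viral fusion, had log2 fold changes of 1.32 and 1.43 and did not pass the test (adjusted p = 0.0919 and 0.0518 by edgeR). Their levels split by route and are given further on.

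Ifi44, a cytoplasmic protein of the response whose function is less well known, had the largest log2 fold change of the list at 2.26 (SE 0.38, adjusted p = 0.00352). Its levels were low, at 13.9, 8.41, 7.92 and 19.0 CPM in GFP+ and 2.21, 1.84, 4.32 and 3.73 CPM in GFP- libraries, without overlap. Rsad2 (viperin), a radical enzyme that makes a chain-terminating nucleotide, stood at 25.5, 67.2, 28.3 and 28.1 CPM against 10.7, 14.7, 19.9 and 8.23 CPM. The sorts did not overlap, the i.v. male's GFP+ library stood apart at the top, and the log2 fold change was 1.76 (SE 0.40, adjusted p = 0.0112). Its neighbour Cmpk2, a mitochondrial nucleotide kinase, and the exonuclease Isg20 did not pass the test, at log2 fold changes of 0.87 and 0.94.

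Among the interferon-inducible GTPases, 4 of the 7 genes tested rose. Ifi47 stood at 43.9, 24.2, 16.3 and 23.4 CPM in GFP+ and 8.45, 5.67, 12.8 and 7.20 CPM in GFP- libraries, without overlap, with a log2 fold change of 1.94 (SE 0.37, adjusted p = 0.00574). Gbp3, a guanylate-binding protein of the defence against intracellular pathogens, stood at 24.5, 29.6, 24.2 and 24.3 CPM against 10.5, 12.7, 16.2 and 16.7 CPM. The 4 GFP+ libraries lay within 6 CPM of each other and above all GFP- libraries, and the log2 fold change was 1.14 (SE 0.18, adjusted p = 0.00305). Mx1 and Gbp2 rose by 0.90 and 1.10 on the log2 scale, Gbp2 with an adjusted p of 0.0547 under the mouse block. Gbp7, Irgm1 and Igtp had log2 fold changes of 0.02 to 0.26 and did not pass.

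Of the 5 oligoadenylate synthetase genes, whose products activate or modulate RNA decay, Oas1a, Oasl1 and Oasl2 rose. Oas1a stood at 24.0, 14.0, 8.26 and 9.63 CPM against 11.1, 4.60, 6.05 and 4.89 CPM and was higher in GFP+ cells of each mouse, with overlap between mice. Its log2 fold change was 1.41 (SE 0.41, adjusted p = 0.0271), and 56.1% of its 3′ windows are shared with Oas1g. On the log2 scale Oasl1 and Oasl2 rose by 1.54 and 1.28, while Oas2 and Oas3 did not pass at 0.88 and 1.40. Slfn5, a Schlafen protein, stood at 127, 70.7, 46.3 and 60.6 CPM against 45.7, 26.4, 45.4 and 33.4 CPM, with a log2 fold change of 1.31 (SE 0.34, adjusted p = 0.0172). The sorts did not overlap, but the i.c.v. female's GFP+ library lay less than 1 CPM above the highest GFP- library.

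Of 5 nucleic acid sensors, Zbp1 and Dhx58 rose, by 1.49 and 0.79 on the log2 scale, and Ifih1, Eif2ak2 and Ddx58 (RIG-I) did not pass at 0.66, 0.29 and 0.15. Irf7, the factor that amplifies interferon production, rose by 1.34 (log2), whereas Stat2 and Irf9 stood at 0.05 and 0.34 without passing. With the mouse as a block the adjusted p of edgeR's test was 0.0686 for Zbp1 and 0.0816 for Irf7. Among the remaining genes Xaf1, Rtp4 and Sp100 rose by 0.81, 1.10 and 1.09 on the log2 scale, and Trim30a, Lgals3bp and Parp14 had log2 fold changes of 0.08 to 0.21 without passing. Ifi35, a leucine zipper protein, Ifi27l2a and the Schlafen genes Slfn2 and Slfn8 did not pass either, at 0.37, 1.27, 0.71 and 0.07 (log2).

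**Figure D2:**
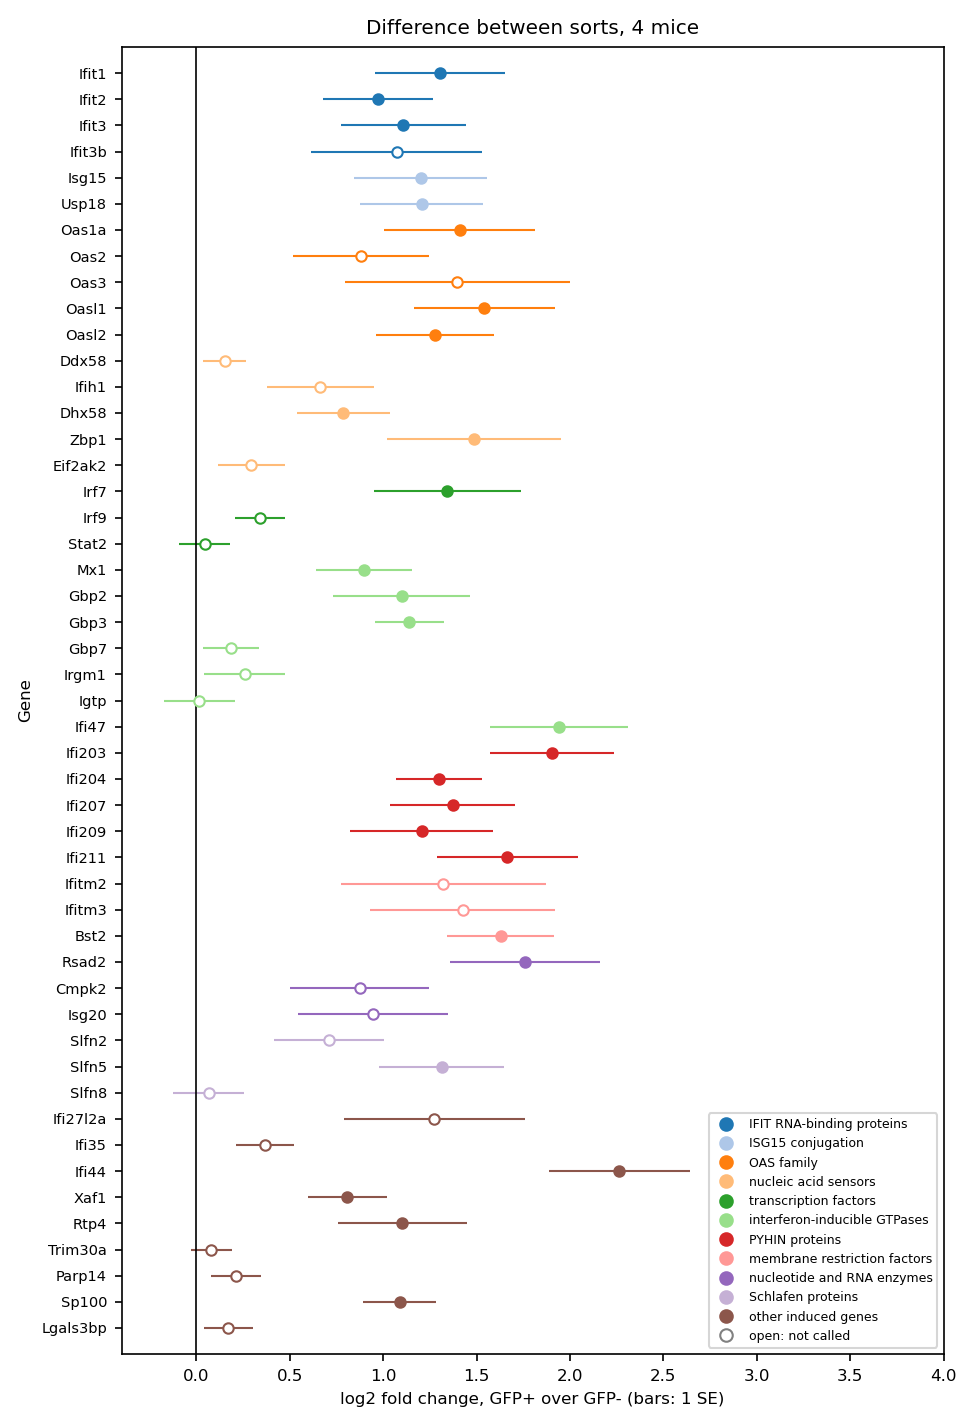
log2 fold change of GFP+ over GFP- (x axis, bars 1 SE) for the 49 genes tested, coloured by role, from 4 GFP+ and 4 GFP- libraries. Filled points are the 27 genes that passed the test, and the points run from 0.02 (Igtp) to 2.26 (Ifi44).

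In plain CPM, 10 genes of the list had all 4 GFP+ libraries above all 4 GFP- libraries, against 6.29% of all genes tested, and 0 had the reverse, against 32.6% of all genes (38.9% in either direction). On the TMM scale 14 of the 49 did so (28.6%, against 16.8% of all genes). The count of 27 fell to 11 without the i.v. male's GFP- library, to 12 without that of the i.c.v. male and to 16 without either GFP+ i.v. library, and 0 genes of the list fell in any of these fits. Within the i.v. mice alone 33 genes of the list rose, beside 1775 of all 12039 genes tested. Within the i.c.v. mice alone 3 did, namely Bst2, Gbp3 and Ifi203, beside 283 of all 11861 genes.

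Other genes of the pathway were read from lists of 92 genes, 91 of them counted and 76 tested between the sorts. Of these, 24 rose and 9 fell, while 16.6% of all 11756 genes tested rose and 15.9% fell. Of 12 interferon genes only Ifnb1 was abundant enough to be tested, and it did not pass (adjusted p = 0.149 by edgeR). Of the 5 receptor genes tested 4 rose. Ifnar1 stood at 121, 142, 145 and 161 CPM in GFP+ and 83.3, 102, 116 and 95.9 CPM in GFP- libraries, and Ifnar2 at 206, 194, 202 and 209 CPM and 168, 147, 154 and 171 CPM. Both receptor chains were higher in every GFP+ library than in any GFP- library, as were 6.29% of all genes tested in plain CPM. Their log2 fold changes were 0.79 and 0.62. The largest log2 rises were those of Mndal (1.84) and Ifi206 (1.67), both PYHIN genes, and of AW112010 (1.82), Ifi213 and Phf11b (1.28 and 1.27). Of 13 upstream sensing genes tested, 2 rose and 4 fell, among them Tlr3, the receptor for double-stranded RNA which stood at 18.7, 11.4, 14.5 and 15.5 CPM in GFP+ and 61.4, 56.5, 32.3 and 46.5 CPM in GFP- libraries. Its log2 fold change was -1.40 (SE 0.19, adjusted p = 0.00154). Tlr7, the receptor for single-stranded RNA, and Tmem173 (STING) fell by 0.65 and 0.56 on the log2 scale, and Irgm2 and Nlrx1 by 0.82 and 0.60. Tlr3 and Tlr7 had every GFP+ library below every GFP- library, as did 32.6% of all genes tested in plain CPM.

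The route comparison asked whether the list differed between MLCs that reached the brain after i.v. and after i.c.v. dosing, with 2 mice each. In GFP+ cells 5 genes of the list were higher after i.v. dosing and 0 lower, while of the 12540 genes tested 2.78% passed, 2.56% higher and 0.215% lower. The median log2 fold change of the list was 0.71. Ifitm3 stood at 712, 655, 151 and 257 CPM in GFP+ and 186, 152, 294 and 183 CPM in GFP- libraries. Both GFP+ i.v. libraries were above 650 CPM and the other 6 libraries of treated mice below 300 CPM, and the log2 fold change of i.v. over i.c.v. in GFP+ cells was 1.85 (SE 0.32, adjusted p = 0.0204). Ifitm2 stood at 287, 327, 56.9 and 98.1 CPM against 70.0, 72.9, 143 and 93.5 CPM, again with both GFP+ i.v. libraries highest, and a log2 fold change of 2.09 (SE 0.30, adjusted p = 0.00939). Slfn2, a Schlafen protein needed for quiescence of lymphocytes and monocytes, stood at 176, 191, 81.8 and 107 CPM against 93.7, 92.6, 126 and 104 CPM, with a log2 fold change of 1.06 (SE 0.18, adjusted p = 0.0201). Isg20 stood at 16.7, 12.4, 5.55 and 5.96 CPM in GFP+ libraries and differed by 1.45 (SE 0.27, adjusted p = 0.0298). Gbp2 stood at 15.9, 25.9, 7.70 and 10.1 CPM and differed by 1.32 (SE 0.26, adjusted p = 0.0372). In GFP+ cells the i.v. and i.c.v. levels did not overlap for these 5 genes, which were chosen by a test between the same libraries. Both i.v. libraries were above both i.c.v. libraries for 29 of the 49 genes of the list. The share over all genes is not given here.

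**Figure D3:**
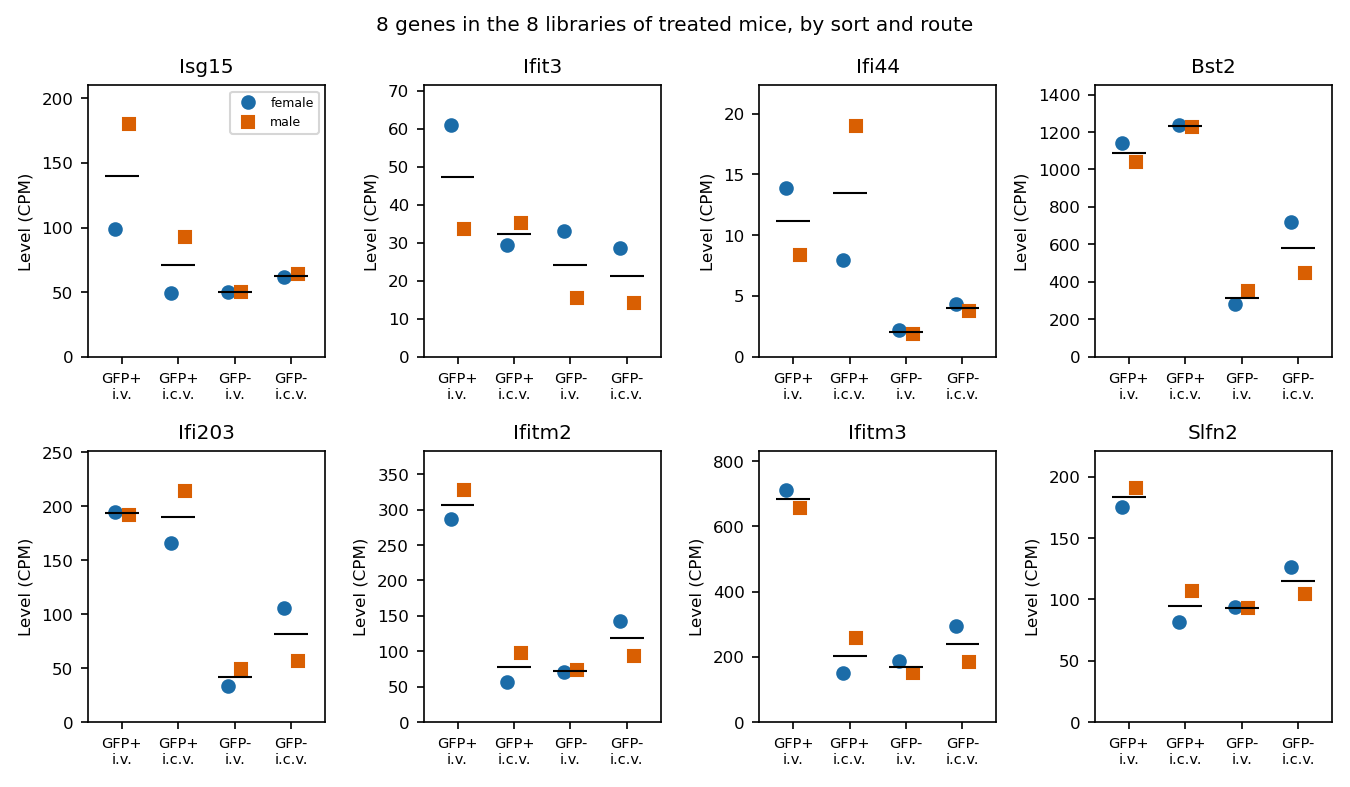
Level in CPM of 8 genes in the 8 treated libraries, by sort and route. Circles are females, squares males and lines the mean of 2 libraries. Bst2 and Ifi203 separate GFP+ from GFP- after both routes, and Ifitm2, Ifitm3 and Slfn2 are high in GFP+ i.v. libraries alone, with both of these above the other 6.

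Markers of several other leukocytes moved with these genes and those of B cells did not. Their part in the differences was not tested beyond the values given here. Summed neutrophil markers were at 1669 and 3305 CPM in the GFP+ i.v. libraries, with 0 of 9 markers missing, and at 112 and 113 CPM in the GFP+ i.c.v. libraries, where 7 and 6 of 9 were at 0, S100a8, S100a9 and Ly6g among them. Monocyte markers were at 272 and 180 CPM against 1.70 and 2.57 CPM, and dendritic cell markers at 204 and 378 CPM against 6.90 and 40.6 CPM. T or NK cell markers were at 64.2 and 48.5 CPM against 2.49 and 5.41 CPM, and B cell markers at 181 and 167 CPM against 188 and 190 CPM. Cells were also counted by markers of any listed type other than microglia and CNS-associated macrophages, astrocytes and oligodendrocytes included. Those with at least 2 markers of 1 such type made up 14.8% and 12.0% of GFP+ i.v. libraries and 5.04% and 4.44% of GFP+ i.c.v. libraries. Without those cells 0 of the 5 genes passed, and the log2 fold changes were 1.39 for Ifitm2 (adjusted p = 0.174 by edgeR), 1.22 for Ifitm3 and 0.80 for Slfn2. In the naive blood library Ifitm3 and Ifitm2 stood at 2174 and 857 CPM. Leaving out the i.c.v. female's GFP+ library also left 0 genes called, leaving out that of the i.v. male left 2, and leaving out that of the i.v. female left 3.

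In GFP- cells 0 genes of the list and 0% of all 12540 genes passed the test between routes by edgeR, where 7 of the list and 1063 of all genes had an unadjusted p under 0.05. DESeq2 called 68 genes of all and 3 of the list, Bst2, Ifi203 and Ifi207, all lower after i.v. dosing. The i.c.v. female's GFP- library had the highest GFP- level of each of these 3 genes and of neutrophil markers (6035 CPM against 340 to 1181 CPM in the other GFP- libraries). It was also highest for markers of CNS-associated macrophages (1591 against 881 to 1310 CPM) and monocytes (138 against 19.6 to 38.6 CPM). Its microglia and dendritic cell markers were the lowest of the GFP- libraries. The part of these markers in the 3 genes was not tested. The difference of the route effect between the sorts passed the test for 3 genes of the list and for 1.91% of all genes, all 3 with a larger i.v. excess in GFP+ cells (1.8% of all genes, with 0.112% the other way). These were Ifitm2 at 2.93 (SE 0.42, adjusted p = 0.0181), Ifitm3 at 2.46 (SE 0.44, adjusted p = 0.0328) and Slfn2 at 1.48 (SE 0.26, adjusted p = 0.0298). A block for the mouse gave 6 genes, the 3 named and Zbp1, Gbp3 and Isg20, and leaving out the cells that carried markers of other types gave 0. With 1 library left out the count was 0 to 5. It was 0 without the GFP- library of either i.v. mouse or of the i.c.v. female, and 5 without that of the i.c.v. male. Leaving out a GFP+ library gave 1 gene for the i.v. male and for the i.c.v. female, 2 for the i.v. female and 3 for the i.c.v. male. Of the pathway lists, Ifi205 (4.27), Irf4 (1.57), Phf11b (1.51) and Samhd1 (0.63) were higher in GFP+ cells after i.v. dosing (log2 fold changes) and 0 were lower, of 77 tested. Over all 12540 genes 2.56% were higher and 0.215% lower.

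Cells with a UMI of Ifit1, Ifit2, Ifit3 or Isg15 were then separated from the rest. At the depth of each cell they made up 23.2%, 19.8%, 11.9% and 15.5% of GFP+ libraries and 6.80%, 6.65%, 8.56% and 8.98% of GFP- libraries. These cells were also deeper, with a median of 6976 to 8847 UMIs in GFP+ libraries against 956 to 2311 in the cells without. With every cell thinned to 500 UMIs the shares were 5.62%, 5.78%, 2.56% and 5.20% in GFP+ and 2.36% to 3.49% in GFP- libraries. The i.c.v. female's GFP+ library lay among the GFP- libraries. The means were 4.79% ± 1.51 and 3.09% ± 0.52 (SD, n = 4 each) and their difference of 1.70 percentage points did not pass an exact permutation test (two-sided p = 0.114, where 0.0286 is the smallest that can be reached). With 1000 UMIs per cell, in the cells that reach this depth, the means were 8.96% and 4.93% without overlap (exact permutation p = 0.0286). At the extremes these were 1810 of 4555 cells in the i.v. male's GFP- and 2561 of 3344 in the i.v. female's GFP+ library. Neither permutation test paired the 2 libraries of a mouse. Among cells of 500 UMIs or more, 482 of 1274 in the naive microglia library, that library had 1.24% (95% exact binomial interval 0.46% to 2.69%). The blood library had 2.40% and the neuron sort 0.207%, the lowest share measured at 500 UMIs. The neuron sort is no background for these genes. At the depth of each cell 11.5% of its cells held a UMI of the 4 genes, and its IFIT genes summed to 74.5 CPM. Cells with 10 or more genes of the list at 500 UMIs were rare, between 1 and 22 per treated library.

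Other genes of the list went with these 4. In each library a gene's level in cells with a UMI of the 4 genes was divided by its level in cells without. Of 41 genes with enough UMIs in all 8 libraries, 34 had a ratio above 1 in all 8 (82.9%, against 7.78% of 11179 genes), and the median ratio was 2.10 against 0.828 over all genes. Among the highest median ratios over 7 or 8 libraries were 8.27 for Oasl1, 8.14 for Rsad2, 5.73 for Irf7 and 5.38 for Cmpk2. Bst2, Ifi203 and Gbp3 stood at 1.73, 1.69 and 1.58, and Irf9, Stat2 and Gbp7 at 1.21, 1.18 and 0.909. Since the cells were split on the same reads, no test was made.

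**Figure D4:**
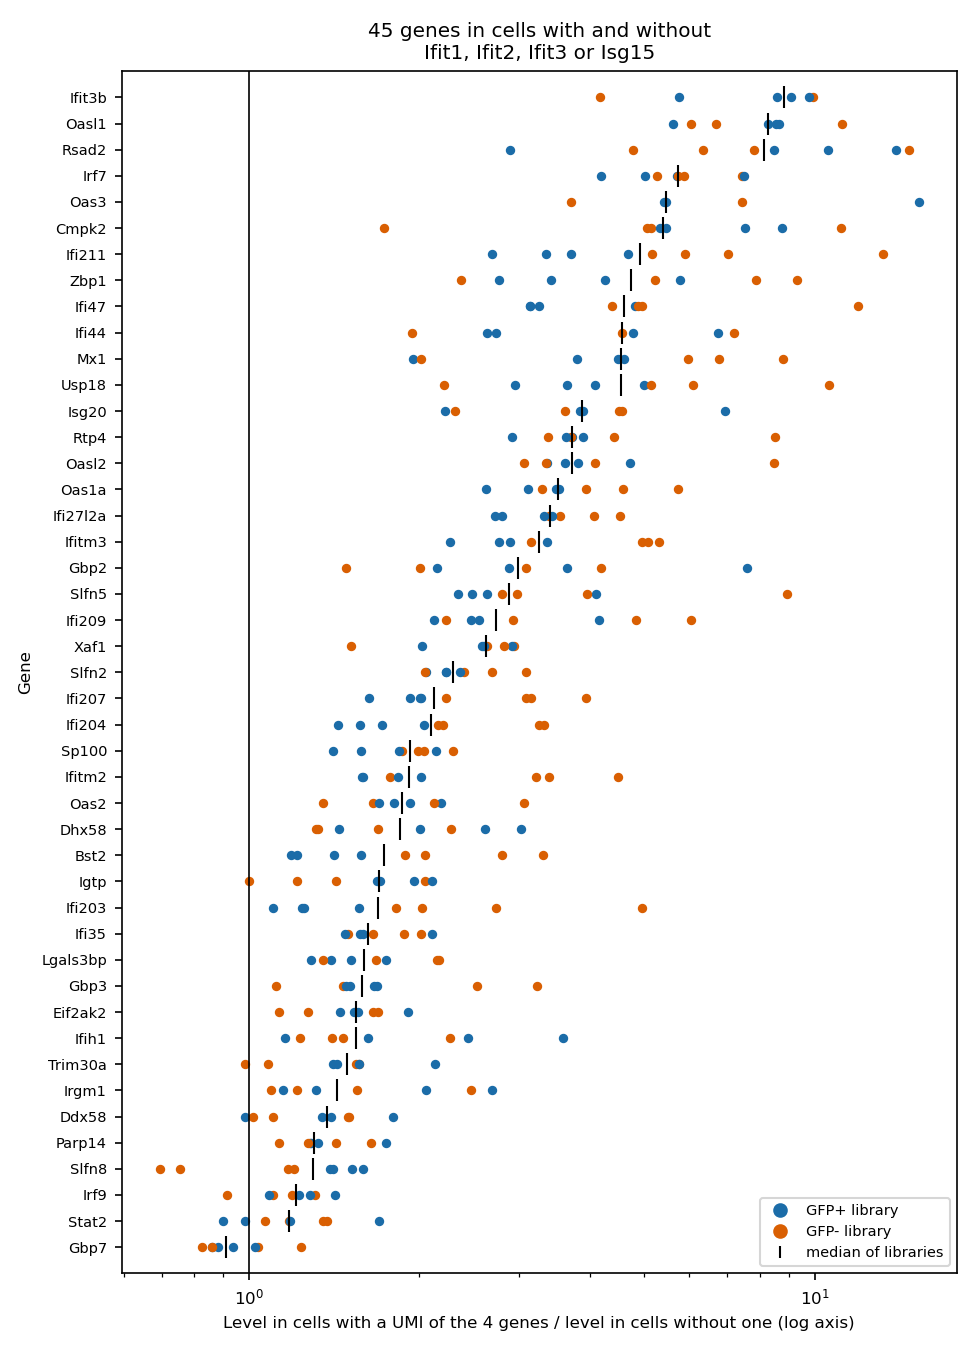
Ratio of a gene's level in cells with a UMI of Ifit1, Ifit2, Ifit3 or Isg15 to its level in cells without (log axis), one point per library, for 45 genes of the list, GFP+ in blue and GFP- in orange with the median as a bar. The genes run from 8.82 for Ifit3b to 0.909 for Gbp7, and Bst2 and Ifi203 lie in the lower part of the order.

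The baseline of the list was read in the cells with no UMI of the 4 genes, 76.8% to 88.1% of GFP+ and 91.0% to 93.3% of GFP- cells. These cells had a median of 832 to 2311 UMIs, and a shallow cell can lack such a UMI though it responds. Responding cells can therefore remain in this baseline, and their part in it was not tested. Here 42 genes of the list were tested, 19 rose in GFP+ cells and 0 fell, against 16.1% and 16% of the 11341 genes tested. All 19 had also risen in all cells, where 23 of these 42 had. The median log2 fold change of the 42 genes was 0.89 in these cells and 1.10 in all cells, and 37 of 42 were smaller here. The cells left out held more of most genes of the list and were a larger share of GFP+ than of GFP- cells. A smaller fold change is therefore partly built into the split, and the same count was not made over all genes. The 2 fits share libraries, so the values stand side by side and were not compared by a test. Bst2 stood at 1066, 957, 1116 and 1029.6 CPM in GFP+ and 202, 271, 605 and 365 CPM in GFP- cells without the 4 genes, with no overlap and a log2 fold change of 1.76 (SE 0.31, adjusted p = 0.00359). Ifi203 stood at 161, 184, 156 and 198 CPM against 19.7, 38.6, 89.9 and 46.8 CPM, also with no overlap, and a log2 fold change of 2.06 (SE 0.38, adjusted p = 0.00416). All 5 PYHIN genes rose here too. Ifi47, Ifi44 and Ifi211 had log2 fold changes of 1.87, 1.81 and 1.69. Rsad2, Oasl1, Dhx58 and Gbp2, which rose in all cells, did not pass here, at log2 fold changes of 0.27 to 1.16. The count of 19 was 16 when cells with any of 5 further induced genes were left out as well, 10 without the i.v. male's GFP- library and 12 without that of the i.c.v. male. Calls over all genes are not set beside these 3 counts, and they too dropped with 1 library left out, as given further below. Without TMM factors 15 rose and 3 fell (Trim30a, Igtp and Slfn8), while of all genes 864 rose and 3569 fell.

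**Figure D5:**
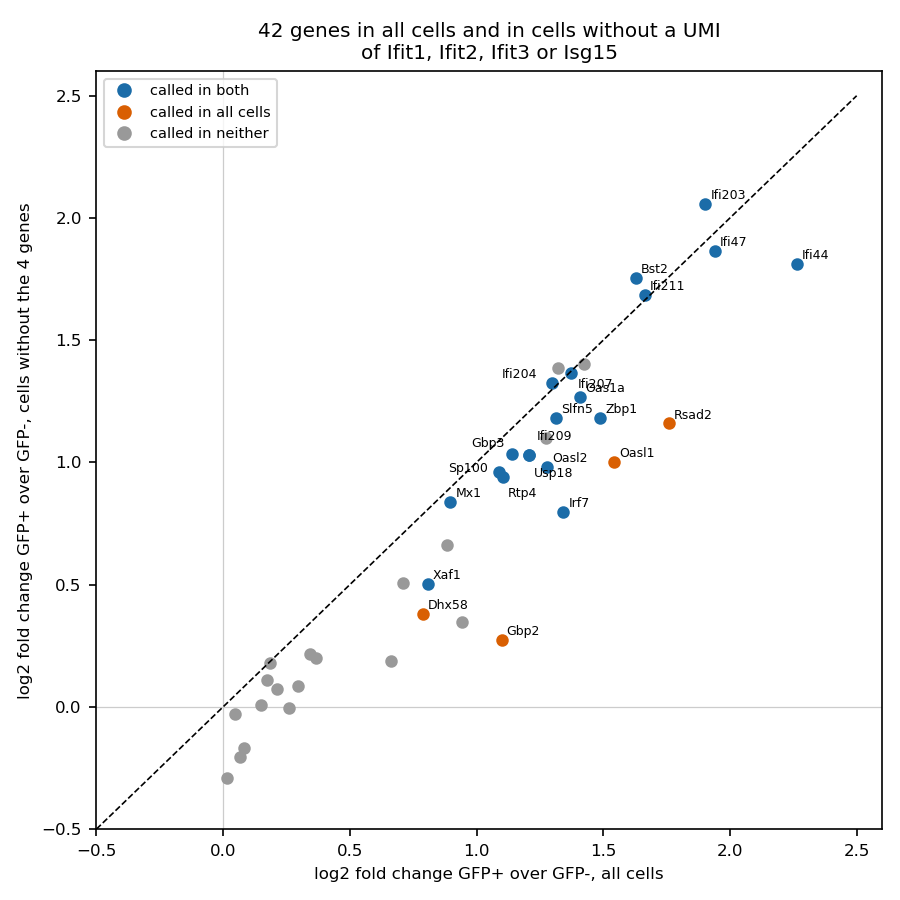
log2 fold change of GFP+ over GFP- in all cells (x axis) and in cells without a UMI of Ifit1, Ifit2, Ifit3 or Isg15 (y axis) for 42 genes, with the line of equality dashed. Bst2 and Ifi203 lie above the line and Rsad2, Oasl1, Irf7 and Gbp2 below it, and the median moves from 1.10 to 0.89.

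Between routes, 4 genes of the list were higher in GFP+ i.v. cells without the 4 genes and 0 lower, against 1.7% and 0.108% of the 12029 genes tested. Ifitm2 and Ifitm3 differed by 2.14 and 1.90 on the log2 scale, Ifi27l2a, a mitochondrial protein of the response, by 1.78 and Slfn2 by 0.95. Ifi27l2a alone passed once cells with markers of other types were left out, and the count ran from 0 to 4 when 1 library was left out: 0 without the i.c.v. female's GFP+ library, 1 without either GFP+ i.v. library, and 2 without the i.c.v. male's GFP+ library or either GFP- i.v. library.

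The treatment-naive libraries had 1 sample each and allow no test. They differed from the treated ones in age, in conditioning and, for microglia, in depth, with a median of 425 UMIs per cell. The naive microglia library also held neutrophil markers at 9237 CPM, above every treated library, and their part in its levels was not tested. In naive microglia 24 of the 49 genes were below the range of the GFP- libraries, 20 within it and 5 above. Bst2 stood at 280.4 CPM there (95% Poisson interval 248 to 315, for counting error alone), just under the lowest GFP- library at 282 CPM, and Isg15 at 39.5 CPM (28.1 to 54.0). Compared with the GFP+ libraries, 33 of 49 were below their range and 1 above it. Blood held the highest level of the 4 references for 28 genes, led by Ifitm3 at 2174 CPM. The neuron sort led for 5, among them Xaf1 at 111 CPM. Astrocytes led for 0 of the 49. Such counts were not made over all genes, so these numbers cannot be read as particular to the list. No UMI of Ifi207 was found in the astrocyte library or the neuron sort, which allows up to 0.624 and 0.807 CPM.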

How the data were processed

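The deposited files hold UMI counts per gene and barcode, made by the authors with Cell Ranger 3.1.0 on mm10, per the file headers and labels, from 10x 3′ single-cell libraries, and how barcodes were chosen for deposit is not given in the sources used here. A barcode was kept when 200 or more genes were detected and mitochondrial UMIs were no more than 10%, and UMIs were summed per library. edgeR 4.0.16 (TMM, filterByExpr, quasi-likelihood) in R 4.3.3 tested GFP+ against GFP- libraries (4 and 4), the routes within each sort and their interaction, with Benjamini-Hochberg adjustment at 0.05 over all genes. Fits were checked on simulated counts. DESeq2 1.42.0 was an alternative. Levels (CPM) use library totals without TMM. A share was compared by an exact permutation test over libraries, which did not pair them by mouse. Shares and levels of single libraries carry 95% intervals for counting error only, with a floor of 3 counts. Cells were thinned to 500 or 1000 UMIs where shares were compared, and cells with fewer UMIs were left out. No doublet caller was run; the 5% of cells with most UMIs were left out as an alternative. Both sorts come from the same 4 animals, so the mouse pairs the libraries, although deviations of same-mouse libraries correlated at 0.204, -0.277, -0.332 and 0.011. Named in full were Ifit1, Ifit2, Ifit3, Isg15 and up to 10 further called genes changed the same way in 4 of 4 mice, 5 elsewhere. The members and lists were chosen with earlier results of these data known. Promoters are from RefSeq, and gene positions from GENCODE on GRCm38.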

Additional observations from a re-analysis of the deposited data

Results flagged for a closer look

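In 7 of 100 groups of 4 libraries (49 genes and the share of cells with the 4 genes, in each sort), 1 library stood far from the other 3. Chance flags about 1 in 20 such groups. Among GFP+ libraries, Rsad2 was at 67.2 CPM in the i.v. male, where the others had 25.5 to 28.3 CPM, and Gbp3 was at 29.6 CPM in the same library, where the others had 24.2 to 24.5 CPM. Xaf1 at 62.2 CPM (others 36.1 to 38.9) and Irgm1 at 38.0 CPM (others 22.0 to 23.5) were high in the i.v. female's GFP+ library, the deepest of all. Among GFP- libraries, Ifi204 at 121.6 CPM (others 63.6 to 73.0) and Ifi211 at 19.1 CPM (others 7.97 to 9.86) were high in the i.c.v. female. Her GFP- library also had the highest neutrophil, monocyte and CNS-associated macrophage markers of the 4 and the lowest microglia and dendritic cell markers. The part of these markers in this was not tested. Eif2ak2 was at 57.7 CPM in the i.v. female's GFP- library and at 36.9 to 37.9 CPM in the others.

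The effect of the route differed between GFP+ and GFP- cells for 3 genes by the interaction term of edgeR's quasi-likelihood test. The difference of log2 fold changes was 2.93 for Ifitm2, 2.46 for Ifitm3 and 1.48 for Slfn2. For each gene both GFP+ i.v. libraries were above both GFP+ i.c.v. libraries, and both GFP- i.v. libraries were below both GFP- i.c.v. libraries for Ifitm2 and Slfn2. For Ifitm3 the GFP- libraries overlapped.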

How the results depend on the processing

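The count of genes of the list higher in GFP+ cells was 27, and ran from 11 to 35 when 1 library was left out and was 3 in i.c.v. mice alone, where 4 libraries remain. Under the other alternatives it lay between 19 and 36. In cells without the 4 genes the count of 19 ran from 10 to 26 with 1 library left out. The route count in GFP+ cells (5) was 0 without cells with markers of other types, 3 without the cells with most UMIs and 3 with thinning to 500 UMIs, 12 by DESeq2, 14 with no filter on low counts, and 0 to 4 with 1 library left out. In GFP- cells (0) it was 3 by DESeq2 and 2 with no filter. The interaction count (3) was 0 without cells with markers of other types, 6 without the cells with most UMIs, 11 by DESeq2, 12 with no filter, 0 to 5 with 1 library left out, and 6 with the mouse as replicate block. The baseline route count (4) was 2 under the stricter filter, 1 without cells with markers of other types, 8 with no filter, and 0 to 4 with 1 library left out. The share difference of 1.70 percentage points (exact permutation p = 0.114) passed with 1000 UMIs per cell (4.03), at each cell's own depth (9.84), and under the stricter filter (2.28), and with 1 library left out it ran from 1.37 to 2.44, the latter without the i.c.v. female's GFP+ library (exact permutation p = 0.0286). The cause of these changes was not tested.

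With the mouse as replicate block, 25 and 16 genes rose in all cells and in cells without the 4 genes. In the latter Zbp1, Irf7 and Mx1 then had adjusted p of 0.0625, 0.0825 and 0.0847 by edgeR, and in all cells the 5 genes given in the report were lost. The block removed no other call. Over all genes, the 3820 called between the sorts were 1269 after thinning, 1031 in i.c.v. mice alone and as few as 2177 with 1 library left out. The 348 called by route in GFP+ cells were 86 without cells with markers of other types, 228 without the cells with most UMIs, 95 after thinning, 526 by DESeq2, 679 with no filter and as few as 42 with 1 library left out. In GFP- cells the 0 called became 5 after thinning, 68 by DESeq2, 83 with no filter, 4 with the GFP- libraries fitted alone and up to 23 with 1 library left out. The 240 of the interaction were 142 under the stricter filter, 25, 88, 598 and 698 without other-marker cells, after thinning, by DESeq2 and with no filter, 678 with the block and as few as 41 with 1 library left out. In cells without the 4 genes the 3636 between the sorts were 1271 after thinning and as few as 2157, and the 218 by route were 62, 78, 329 and 897 without other-marker cells, after thinning, by DESeq2 and with no filter, and as few as 14 with 1 library left out. None of the 58 results for single genes that passed changed sign under any alternative, but many lost the call. Between the sorts this happened in 114 of 566 alternative fits of single genes, and in cells without the 4 genes in 46 of 359. Calls by route and of the interaction were lost in some fits as well.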

Other observations

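Ifnb1, the gene of interferon beta, rested on few cells. In the i.v. male's GFP+ library 171 UMIs lay in 21 of 2266 cells, and 112 of them in 1 cell. In the i.c.v. female's GFP+ library 114 UMIs lay in 3 of 2621 cells, and 111 of them in 1 cell. The other 2 GFP+ libraries held 1 and 3 UMIs, the GFP- libraries 2 to 17, and the 4 naive libraries 0. Of the 21 cells, 16 also held a UMI of Ifit1, Ifit2, Ifit3 or Isg15. Doublets and free RNA were not examined for these cells.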
